A study of Mus musculus with 6 samples.

Results

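The enzymes of sterol and fatty acid synthesis, with the proteins that sense and handle sterols, were followed across cultures of mouse myeloid cells with floxed PD-L1 alleles, with or without Cre. The 34 genes were taken by symbol from a list of enzymes and SREBP targets, and all 34 were among the 17382 genes of the deposited table. They form 3 sets: 19 sterol synthesis enzymes, 7 genes of sterol sensing and handling, and 8 genes of fatty acid synthesis. All 6 libraries came from bone marrow of C57BL/6 mice aged 2 months, grown in culture over 3 days in medium with 10% serum and M-CSF at 40 ng/mL, a cytokine that drives macrophage precursors to divide and mature. The 3 libraries labelled knockout (knockout 1 to 3) came from mice with the genotype PD-L1 flox/flox +lysozyme-Cre, in which Cre is made in cells of the myeloid lineage. The 3 wild-type libraries came from PD-L1 flox/flox littermates, so that both groups carried the floxed alleles. The series asked how loss of PD-L1, the ligand of the inhibitory receptor PD-1, changes the RNA of these cells. No source used here says which exons were floxed, or what share of the cultured cells had lost them.

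Animal cells build cholesterol from acetyl-CoA through mevalonate, the isoprenoid farnesyl diphosphate, squalene and lanosterol. When sterols are scarce in the endoplasmic reticulum, SCAP carries the membrane-bound SREBP factors to the Golgi, where they are cut, and the freed part enters the nucleus and switches on these genes; when sterols are plentiful, the INSIG proteins hold SCAP back. SREBP-2, encoded by Srebf2, acts mainly on the sterol genes, and SREBP-1, encoded by Srebf1, mainly on fatty acid synthesis. In macrophages this system balances the cholesterol taken up from other cells and from serum, and liver X receptors, which sense oxysterols, also act on Srebf1 and on desaturase genes.

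Library depth ran from 52.4 to 77.3 (in 1000000 reads), and each of the 34 genes had at least 308 reads in every library, the fewest in Idi1. Cd274, which encodes PD-L1, checks the labels only in part: it had 19.3, 19.2 and 29.2 TPM under the knockout label and 17.9, 15.5 and 23.7 TPM under the wild-type label, and was not lower in the former, with a log2 difference of 0.24 ± 0.22 (SE; limma, adjusted p = 1.0). TPM is a level per gene length, scaled to a total of 1000000 in each library. The first principal component over all genes, with 44.3% of the variance, did not divide the libraries by genotype: knockout 1, knockout 2 and wild type 3 lay on its negative side, and knockout 3, wild type 1 and wild type 2 on its positive side. The limma test over 13722 genes called 0 of them in either direction (adjusted p under 0.05), which is 0%, with 2.18% at an unadjusted p under 0.05, and limma-voom on recovered reads also called 0, with 308 at an unadjusted p under 0.05. Of the macrophage markers, 5 of 6 were in the table used here, with a summed level of 3514 to 4416 TPM under the knockout label and 3755 to 4570 TPM under the wild-type label. Fat cells also make fatty acids at a high rate, and 3 of 5 of their markers were in the table used here, with a summed level of at most 0.068 TPM under the knockout label and 0.198 TPM under the wild-type label; Plin1 was listed at 0 in all libraries but knockout 2. Of the T and NK cell markers, 5 of 6 were in the table used here, and their summed level was 5.22 to 7.71 TPM under the knockout label and 2.75 to 4.20 TPM under the wild-type label; the part of such cells in the differences below was not tested. In bulk RNA, fewer cells of a type and less RNA per cell cannot be told apart.

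Most sterol genes with a promoter window had an NF-Y box in at least 1, as did 1 of the 5 fatty acid genes with a window. Windows of the 250 bases before the gene start were taken from RefSeq on GRCm38.p6, the same assembly as mm10, for 27 of the 34 genes. These genes had 35 windows, since some have several starts, and for 30 of the 35 the bases after the start lay in a GENCODE transcript of the gene. They were searched on both strands for the core of the sterol regulatory element, to which SREBP binds (TCACNCCAC), the box of NF-Y, a factor that commonly acts beside SREBP (CCAAT), the E-box (CACGTG) and the Sp1 box (GGGCGG). The NF-Y box was in 15 of the 16 sterol enzymes with a window, the exception being Acat2, and in 5 of the 6 sensing and handling genes, but in 1 of the 5 fatty acid genes, Fasn. Of the genes in the table with a window, 39.5% had the box in at least 1. The 5 fatty acid genes are too few to set apart from that share. By window it was in 15 of 19 for the sterol enzymes, 6 of 11 for sensing and handling and 1 of 5 for fatty acid synthesis, against 34.6% of all 15624 windows. For 3 of the genes counted the box lay only in a window far from the gene start of the table: for Dhcr7 at a start 7.05 kb inside the gene, for Pmvk at a start 4.58 kb before the gene, and for Srebf1 at starts 10.1 kb inside and 1.98 kb before the gene. The strict sterol element core was in 1 of the 27 genes, Hmgcs1, against 1.31% of all genes with a window. The E-box was in 5 of the 27 genes (Dhcr7, Hsd17b7, Insig1, Sc5d and Scap) and in 9.10% of all genes with a window, and the Sp1 box was in 21 of the 27 and in 57.8% of all. A gene with several starts counts once if any of its windows holds the letters, and a match describes the letters only. The windows of Hmgcs1, Cyp51, Insig1, Fasn and Acly are shown because they span both arms and hold from 3 NF-Y boxes to none; they read 5′ to 3′ on the gene's strand, with the sterol element core and the NF-Y boxes in either orientation in capitals.
Hmgcs1: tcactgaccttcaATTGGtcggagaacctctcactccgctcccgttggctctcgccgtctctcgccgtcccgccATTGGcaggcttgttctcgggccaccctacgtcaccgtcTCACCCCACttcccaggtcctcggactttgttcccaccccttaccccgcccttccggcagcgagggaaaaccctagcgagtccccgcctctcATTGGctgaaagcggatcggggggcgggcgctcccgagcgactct
Cyp51: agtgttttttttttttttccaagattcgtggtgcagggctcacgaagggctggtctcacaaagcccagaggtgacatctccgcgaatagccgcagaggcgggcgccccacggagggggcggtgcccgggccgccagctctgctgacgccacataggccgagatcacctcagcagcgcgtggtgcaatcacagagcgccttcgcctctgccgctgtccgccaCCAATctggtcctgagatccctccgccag
Insig1: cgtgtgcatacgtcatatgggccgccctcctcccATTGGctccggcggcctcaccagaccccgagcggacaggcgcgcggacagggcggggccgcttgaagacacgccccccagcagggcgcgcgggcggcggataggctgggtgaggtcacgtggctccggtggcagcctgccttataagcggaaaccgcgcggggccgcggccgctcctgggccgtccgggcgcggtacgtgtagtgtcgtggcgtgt
Fasn: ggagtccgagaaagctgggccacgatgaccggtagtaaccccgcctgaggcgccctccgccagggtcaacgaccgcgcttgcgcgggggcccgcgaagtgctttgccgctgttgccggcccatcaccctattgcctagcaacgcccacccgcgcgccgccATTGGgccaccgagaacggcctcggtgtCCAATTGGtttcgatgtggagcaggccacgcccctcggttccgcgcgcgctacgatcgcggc
Acly: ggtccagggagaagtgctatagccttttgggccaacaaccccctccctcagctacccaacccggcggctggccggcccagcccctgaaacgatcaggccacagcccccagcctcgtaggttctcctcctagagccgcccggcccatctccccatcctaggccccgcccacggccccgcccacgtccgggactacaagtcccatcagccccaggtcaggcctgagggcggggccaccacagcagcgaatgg
The Hmgcs1 window (chr13:119690101-119690350, plus strand) held the sterol element core from 137 to 129 bases before the start, with NF-Y boxes that begin 237, 176 and 45 bases before it. The Cyp51 window (chr5:4104698-4104947, minus strand) held 1 NF-Y box, and so did the Insig1 window (chr5:28071162-28071411, plus strand). The Fasn window (chr11:120824548-120824797, minus strand) held 3 NF-Y boxes, of which 2 share bases in opposite orientation, and the Acly window (chr11:100528001-100528250, minus strand) held none.

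The 34 genes were expressed over a wide range of levels. Mean levels ran from 5.44 to 314 TPM in the sterol enzymes, 22.7 to 232 TPM in the sensing and handling genes and 15.2 to 650 TPM in the fatty acid genes, with medians of 81.0, 71.9 and 119 TPM. Scd2, a desaturase that makes monounsaturated fatty acids, was the most abundant of the 34 in all 6 libraries, and Idi1, the isomerase that makes the 2 isoprenoid building blocks interchangeable, the least abundant in all 6. Among sterol enzymes the highest were Fdps, which makes farnesyl diphosphate, Msmo1, the methylsterol oxidase, and Hmgcs1, the synthase that makes the precursor of mevalonate, at mean levels of 314, 285 and 252 TPM. In the same library Fdps was 49.1 to 69.0 times as abundant as Idi1. Insig1 was 5.73 to 7.50 times as abundant as Insig2, and Srebf2 was 1.60 to 1.94 times as abundant as Srebf1; the table gives 1 value per gene, so the isoforms of Srebf1 were not separated.

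**Figure D1:**
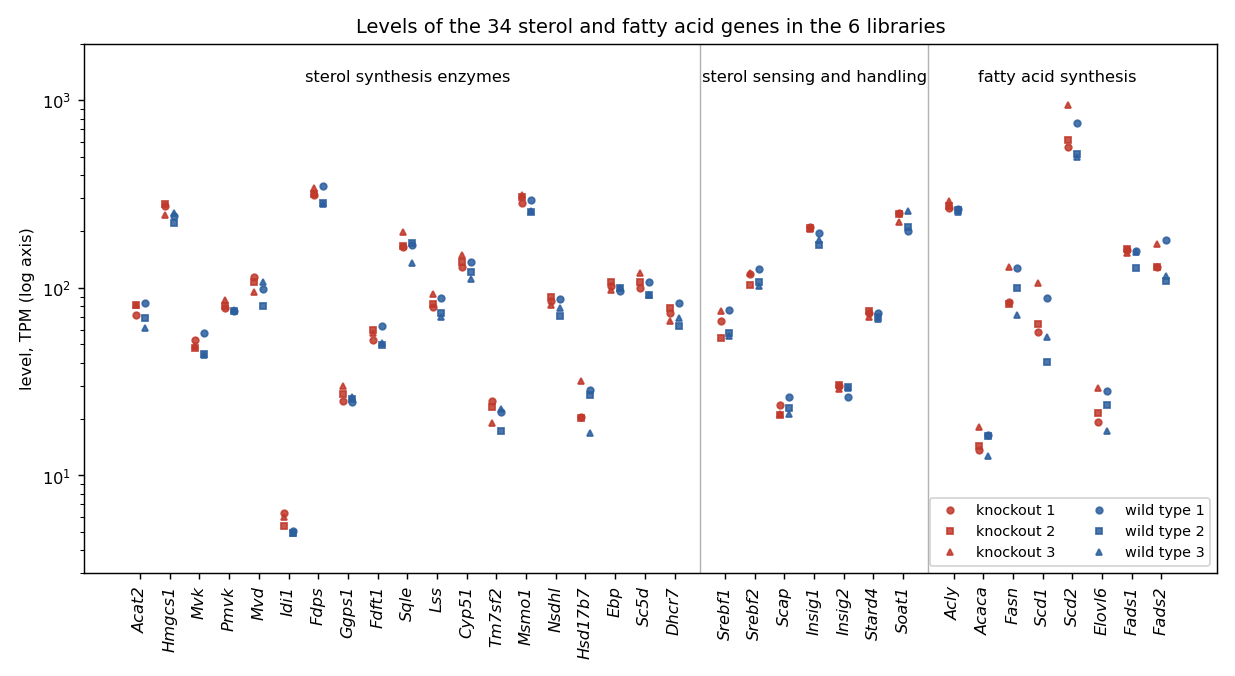
Level in TPM (log axis) of each of the 34 genes in each library, red for the libraries labelled knockout and blue for wild type, in the 3 sets. Levels span from 4.91 TPM for Idi1 in wild type 2 to 945 TPM for Scd2 in knockout 3, and the 2 colours overlap for all but 4 genes.

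Sterol synthesis enzymes lay slightly higher in the libraries labelled knockout, by amounts within the error of each gene. The log2 difference was positive for all 19 (for 18 under quantile normalization), ranging from 0.02 to 0.24 around a median of 0.12, while the median over all genes tested was 0.00 and 51.1% of all genes were positive. None of the 19 passed the limma test over all genes (adjusted p = 1.0 for each), and 0 had an unadjusted p under 0.05. The groups did not overlap for 2 of the 19, against 5.12% of all genes; over the 34 genes there were 4, all higher with the knockout label, against 2.84% of all genes higher and 2.27% lower. The wild-type libraries differed among themselves: 2 of the 19 genes were above their own mean in wild type 2, again 2 in wild type 3, and 13 in wild type 1. The genes were measured in the same 6 libraries, so the 19 signs are not 19 separate observations. Without wild type 2 the median was 0.10 with 16 of 19 genes positive, without wild type 3 it was 0.09 with 17 positive, and without knockout 3 it was 0.10 with 18 positive.

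Along the first part of the pathway, Acat2, a thiolase that joins acetyl-CoA, had 71.7, 81.1 and 81.4 TPM under the knockout label and 82.7, 69.4 and 61.3 TPM under the wild-type label. Hmgcs1 had 274, 281 and 245 TPM under the knockout label and 241, 222 and 251 TPM under the wild-type label. Its log2 difference was 0.16 ± 0.09 (SE; 95% interval -0.05 to 0.38); the groups overlapped through knockout 3 and wild type 3. Mvk, the mevalonate kinase, had 52.5, 47.6 and 49.0 TPM against 57.5, 44.6 and 44.1 TPM under the wild-type label. Wild type 1 was its highest library and the other 2 wild-type libraries its lowest, and the difference was 0.04 ± 0.12 (-0.25 to 0.33). Pmvk, the next kinase, had 78.4, 79.6 and 86.1 TPM under the knockout label and 75.5, 75.3 and 76.3 TPM under the wild-type label. Each library labelled knockout was thus above each of wild type, by a log2 difference of 0.10 ± 0.07 (-0.07 to 0.27). Mvd, the decarboxylase that ends the mevalonate steps, differed by 0.15 ± 0.13, with wild type 2 lowest at 80.4 TPM.

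Idi1 (chr13:8885606-8892396, plus strand) had 6.34, 5.36 and 6.01 TPM under the knockout label and 5.07, 4.91 and 4.95 TPM under the wild-type label. It had the fewest reads of the 34 genes, 308 to 538 per library. The groups did not overlap, and its log2 difference of 0.24 ± 0.12 was the highest of the 19 (limma, 95% interval -0.05 to 0.52, adjusted p = 1.0). Fdps had 311, 319 and 343 TPM against 350.1, 284 and 279 TPM, so that its highest library and its lowest were both wild type. Ggps1, which extends farnesyl to geranylgeranyl diphosphate, averaged 27.4 ± 2.49 TPM and 25.5 ± 0.687 TPM in the same order (SD, n = 3 each).

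From squalene onwards, Fdft1, the squalene synthase, averaged 56.5 ± 3.34 TPM with the knockout label and 54.2 ± 7.14 TPM without it (SD, n = 3 each). It overlaps 774 bases of Ctsb on the other strand, a gene with a mean level of 7812 TPM, and no source used here says whether strand was used in counting, so its value is uncertain. Sqle, the squalene epoxidase, had 166, 168 and 198 TPM against 169.8, 174 and 137 TPM, with wild type 3 apart below the rest. Lss, which closes the lanosterol rings, and Cyp51, the lanosterol demethylase, differed by 0.14 ± 0.11 and 0.17 ± 0.10 on the log2 scale, each lowest in wild type 3. Msmo1 had 283, 307 and 315 TPM under the knockout label and 293, 255 and 256 TPM under the wild-type label. Of the wild-type libraries only wild type 1 reached the range of the libraries labelled knockout, and the difference was 0.17 ± 0.09 (-0.04 to 0.39). Sc5d, a late desaturase, showed the same pattern, with 100.1, 107 and 119 TPM against 107, 91.7 and 91.2 TPM.

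The remaining late enzymes differed from each other in how they varied. Hsd17b7, a sterol ketoreductase, had 20.5, 20.2 and 31.9 TPM under the knockout label and 28.4, 26.7 and 16.8 TPM under the wild-type label. It had the widest range of the 19, and its 3 highest libraries were those on the first component's positive side, with no difference between genotypes beyond error (0.02 ± 0.26, 95% interval -0.61 to 0.64). Tm7sf2, a sterol reductase, ran the other way, with 25.0, 23.2 and 19.0 TPM against 21.8, 17.2 and 22.7 TPM, so that the libraries of the positive side were lowest; its row shares 9 bases with Vps51 on the same strand. Ebp, the sterol isomerase, had 102.8 ± 5.37 TPM against 98.6 ± 2.20 TPM (SD, n = 3 each) and varied least of the 19. Nsdhl, a sterol dehydrogenase, differed by 0.12 ± 0.10. Dhcr7, a reductase at the end of the pathway, had 73.5, 78.2 and 66.6 TPM against 83.1, 62.8 and 68.8 TPM, a difference of 0.03 ± 0.12. Wild type 2 was the lowest library of both.

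**Figure D2:**
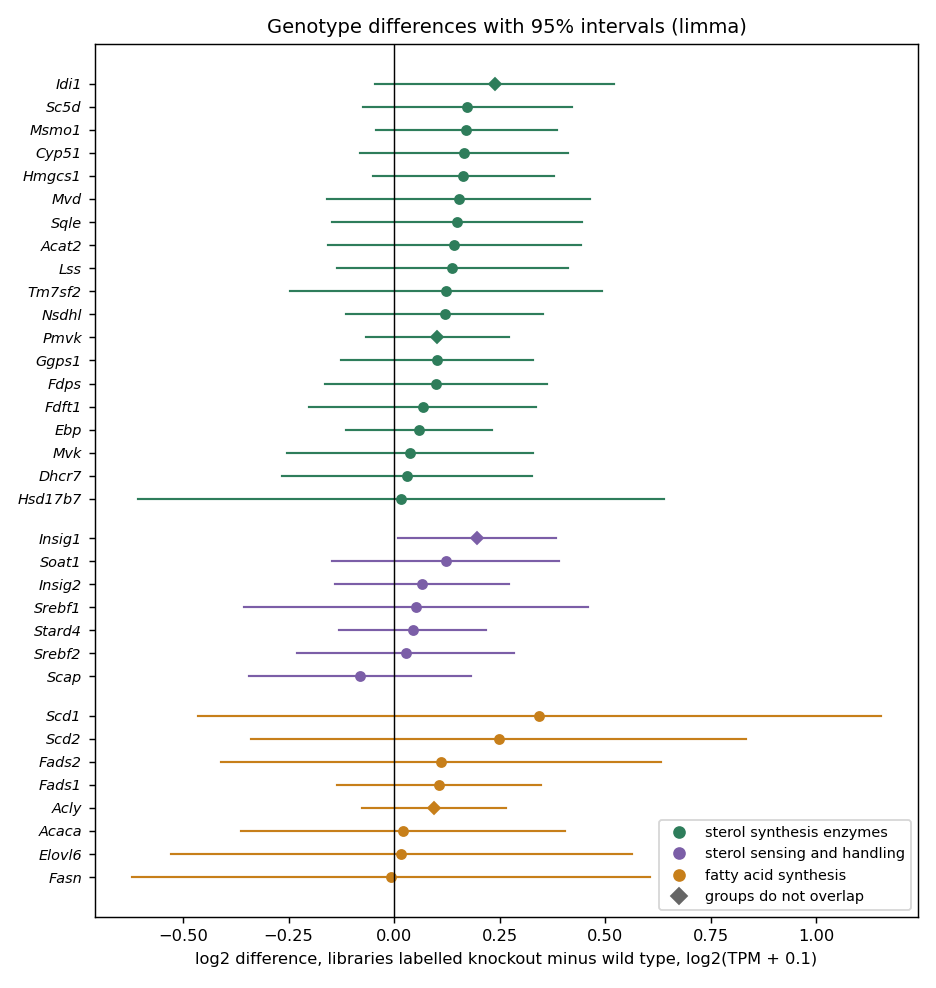
Log2 difference of each gene, libraries labelled knockout minus wild type, on log2(TPM + 0.1), with 95% limma intervals; diamonds mark the 4 genes whose groups do not overlap. All 19 sterol enzymes lie right of 0 (18 under quantile normalization), and the interval of Insig1 alone excludes 0 before adjustment.

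In sterol sensing and handling, Insig1 had the highest log2 difference of the 7 genes, and those of the factors themselves lay near 0. Srebf2 had 119, 104 and 120.3 TPM under the knockout label and 127, 108 and 103 TPM under the wild-type label, a log2 difference of 0.03 ± 0.11 (-0.23 to 0.29). Srebf1 had 66.7, 53.8 and 75.2 TPM against 76.2, 57.5 and 55.4 TPM, a difference of 0.05 ± 0.17 (-0.36 to 0.46). Both factors were high in knockout 3, knockout 1 and wild type 1 and low in the other 3 libraries, so neither divided by genotype. Scap was the only gene of this set with a negative difference, with 23.8, 21.1 and 21.3 TPM against 26.1, 22.8 and 21.3 TPM, or -0.08 ± 0.11; without wild type 1 it was 0.0022.

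Insig1 (chr5:28071412-28078662, plus strand) is itself switched on by SREBP and acts as a brake on it. It had 210.1, 209 and 205 TPM under the knockout label and 196, 170.3 and 179.9 TPM under the wild-type label. The libraries labelled knockout lay close together and above each of wild type. The log2 difference was 0.20 ± 0.08 (95% interval 0.01 to 0.38), with an unadjusted p of 0.0431 and an adjusted p of 1.0 (limma), and it was the only 1 of the 34 genes at an unadjusted p under 0.05, where all genes gave 2.18%. It was 0.22 within the negative side of the first principal component and 0.17 within the positive side, and it ranged from 0.15 to 0.25 with single libraries left out, at unadjusted p of 0.0218 (without wild type 1) to 0.129 (without wild type 2). Insig2 had 30.0, 30.2 and 28.9 TPM against 26.1, 29.7 and 29.4 TPM, and only wild type 1 stood below the rest.

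Stard4, which carries cholesterol between membranes, varied least of the 34, with 73.3, 75.7 and 70.1 TPM against 73.9, 69.9 and 68.6 TPM. Soat1, which esterifies cholesterol for storage, had 252, 248 and 225 TPM under the knockout label and 200.3, 212 and 256 TPM under the wild-type label. Its 3 highest libraries were those of the negative side, the reverse of Hsd17b7. Without wild type 3 its log2 difference was 0.23 with an unadjusted p of 0.0415 and an adjusted p of 0.655 (limma), the only 1 of the 34 genes at an unadjusted p under 0.05 in that fit, where all genes gave 7.41%. Over the 7 genes of this set the median log2 difference was 0.05, 6 were positive, and the groups did not overlap for Insig1 alone, against 5.12% of all genes. Single libraries moved this median from 0.02 (without wild type 3) to 0.09 (without knockout 2), and 4 of 7 were positive without knockout 3, without wild type 2 or without wild type 3.

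Fatty acid synthesis genes varied more between libraries than the sterol genes, and this variation crossed the genotypes. Over the 6 libraries the SD of log2 levels had a median of 0.30 in the 8 fatty acid genes, 0.15 in the sterol enzymes and 0.12 in the sensing and handling genes, beside 0.14 in the 9872 genes tested with a mean of at least 5 TPM. Knockout 3 was above the gene's own mean for all 8 genes and wild type 1 for 7 of 8, with median deviations of 0.34 and 0.29 on the log2 scale. Wild type 3 was above it for 1 of 8, with a median deviation of -0.26. For 3 of the 8 (Acaca, Fasn and Elovl6) the libraries of the positive side were all above those of the negative side. The same held for 24.6% of all genes and 29.9% of the genes tested with a mean of at least 5 TPM. Over the 34 genes the sides did not overlap for 5 that were higher on the positive side and 4 that were lower, against 47.3% of all genes in either direction; the sides were read from the values of all genes, so this is a description. The summed levels of 3 marker lists divided by the sides as well, though not all of their genes did. The summed erythroid markers were 53.9 to 85.2 TPM on the positive side and 29.9 to 46.7 TPM on the negative side, the neutrophil markers 2216 to 2783 TPM and 3007 to 3237 TPM, and the macrophage markers 3514 to 4294 TPM and 4386 to 4570 TPM. In the erythroid list the globin genes Hbb-bs and Hba-a1 were higher on the positive side, Epor, the erythropoietin receptor, was lower, and Klf1 overlapped. In the neutrophil list S100a8, its most abundant gene, and Ltf were lower on the positive side, and Elane, Mpo and Camp overlapped. In the macrophage list Csf1r and Mertk were lower on the positive side, and Cd68, Itgam and Fcgr1 overlapped. The part of these cells in the levels of the fatty acid genes was not tested.

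Fasn, the fatty acid synthase, had 84.5, 81.7 and 129 TPM under the knockout label and 127, 99.3 and 71.8 TPM under the wild-type label. Its group means were nearly equal, 98.4 ± 26.6 and 99.4 ± 27.6 TPM (SD, n = 3 each), while the libraries of the positive side averaged 1.49 times those of the negative side. The log2 difference of genotype was -0.01 ± 0.26 (-0.62 to 0.61), and a 1.5-fold change either way is inside that interval. Elovl6, which elongates the product of Fasn, had 19.3, 21.4 and 29.2 TPM against 28.4, 23.7 and 17.2 TPM, and Acaca, the carboxylase that supplies malonyl-CoA, had 13.6, 14.3 and 18.1 TPM against 16.4, 16.3 and 12.6 TPM. Both had the same order of sides as Fasn, and genotype differences of 0.02 ± 0.23 and 0.02 ± 0.16.

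Scd1 and Scd2, neighbouring desaturase genes on chromosome 19 with 87.6 kb between them, had the highest genotype differences of the fatty acid set, both with wide intervals. Scd1 had 58.2, 64.4 and 106 TPM under the knockout label and 88.8, 40.2 and 54.5 TPM under the wild-type label, a log2 difference of 0.34 ± 0.34 (-0.47 to 1.15). Scd2 had 566, 615 and 945 TPM against 761, 520 and 497 TPM, a difference of 0.25 ± 0.24 (-0.34 to 0.83). In both genes knockout 3 was highest and wild type 1 next, and the groups overlapped. Without knockout 3 the differences were 0.08 and 0.02, and without wild type 1 they were 0.65 and 0.44. Scd2 was 8.57 to 12.9 times as abundant as Scd1, with the highest ratio in wild type 2, where Scd1 had its lowest level. How reads matching both genes were assigned is not given in the sources used here. On the same strand, the row of Scd1 shares 13260 bases with each of Snora19, Mir3084 and Mir3084-2, at mean levels of 0.521 to 0.633 TPM. The rows of Snora19, Mir3084 and Mir3084-2 also share 13187 bases each with Scd2 on the other strand, so each reaches over both genes. The row of Scd2 shares 61 bases with Mir5114 on its strand, which had a mean level of 1657 TPM. The part of these overlaps in the values was not tested.

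Fads1 and Fads2, the desaturases of polyunsaturated fatty acids, lie on the same chromosome with 81.4 kb between them but varied differently. Fads2 had 129, 129 and 171 TPM under the knockout label and 181, 109 and 115 TPM under the wild-type label, high in knockout 3 and wild type 1 as were the Scd genes. Fads1 had 160.2, 160.7 and 153 TPM against 158, 128 and 156 TPM, and wild type 2 alone stood apart. Fads1 was more abundant than Fads2 in 4 libraries, and less abundant in knockout 3 and wild type 1, at ratios of 0.896 and 0.873. Acly, which makes cytosolic acetyl-CoA for both arms, had 268, 272 and 291 TPM under the knockout label and 264, 259 and 255 TPM under the wild-type label. Its groups did not overlap, and the log2 difference was 0.09 ± 0.07 (-0.07 to 0.26).

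**Figure D3:**
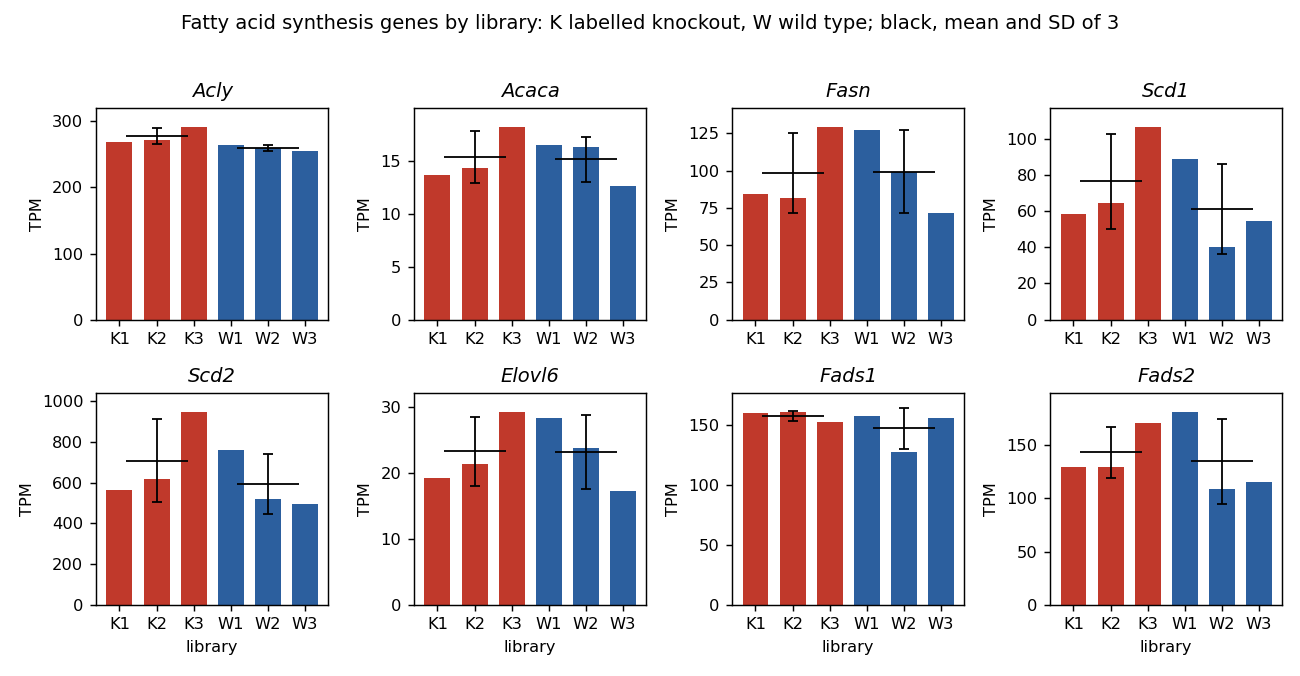
Level in TPM of the 8 fatty acid synthesis genes in each library (K, labelled knockout; W, wild type), with the mean and SD of each group of 3 in black. K3 and W1 are the 2 highest libraries for Acaca, Fasn, Scd1, Scd2, Elovl6 and Fads2, while Acly and Fads1 stay within a narrow range.

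Over the 8 fatty acid genes the median log2 difference was 0.10, with 7 positive and 1 negative, and 0 passed the limma test over all genes; the groups did not overlap for 1 of 8, against 5.12% of all genes. Without knockout 3 the median was -0.00015 and 4 of 8 were positive. Within the sides all 8 were positive. Their median was 0.17 in the negative side (2 libraries labelled knockout against wild type 3) and 0.18 in the positive side (knockout 3 against 2 wild-type libraries). Of the 19 sterol enzymes, 18 and 15 were positive in the same order, with medians of 0.18 and 0.12. Of all 13722 genes, 8376 and 6198 were positive, with medians of 0.03 and -0.02. The sides were read from these same values, so this is a description. With the side as a term in the fit, 8 of the 34 genes had an unadjusted p under 0.05, against 7.59% of all genes: Sqle, Lss, Cyp51, Msmo1, Hsd17b7, Sc5d, Insig1 and Scd2. The highest of these differences was 0.42 for Scd2 and the smallest adjusted p was 0.549, for Sqle (limma), so none passed. The term was estimated from the same libraries, with 1 library of a genotype on each side.

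**Figure D4:**
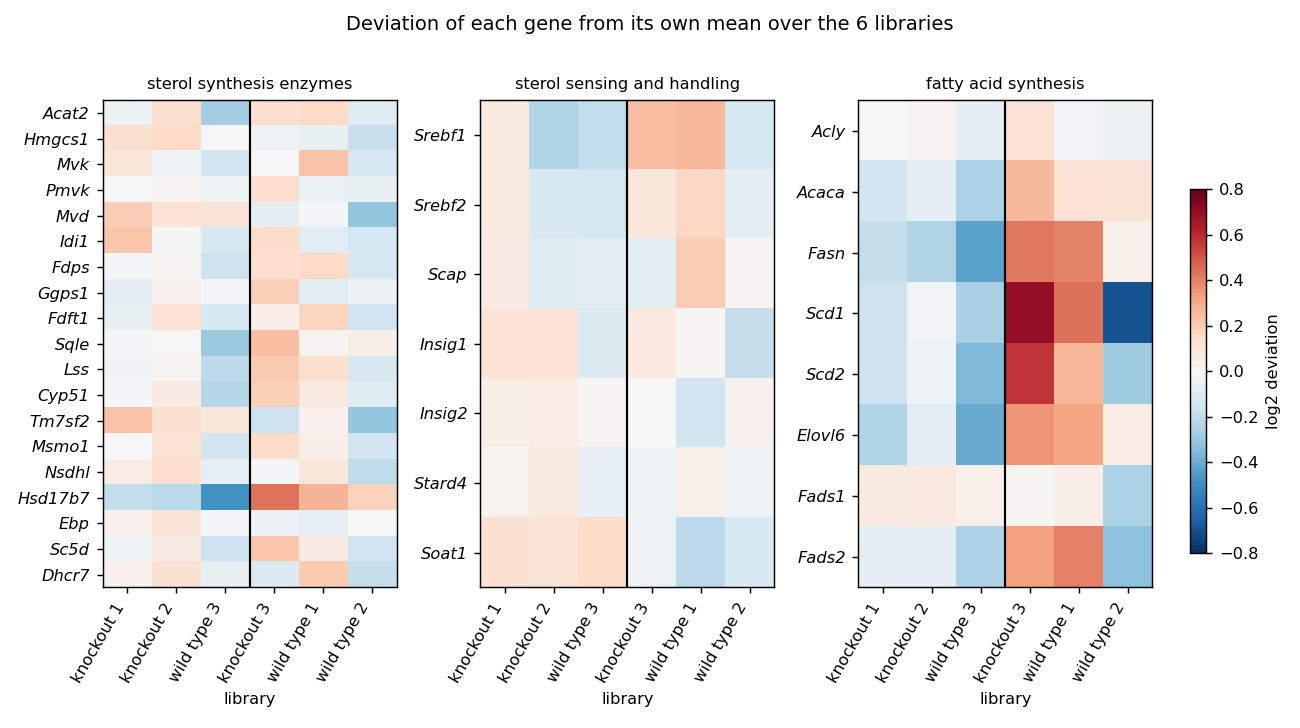
Log2 deviation of each gene from its own mean over the 6 libraries, from -0.8 (blue) to 0.8 (red), in the 3 sets; the line parts the negative side of the first principal component (left) from the positive side. Hsd17b7, Fasn, Scd1, Scd2, Elovl6 and Fads2 carry the strongest colours. Sqle, Hsd17b7, Acaca, Fasn and Elovl6 are higher in each library right of the line than in any left of it. Hmgcs1, Mvd, Tm7sf2 and Soat1 are lower in each.

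**Figure D5:**
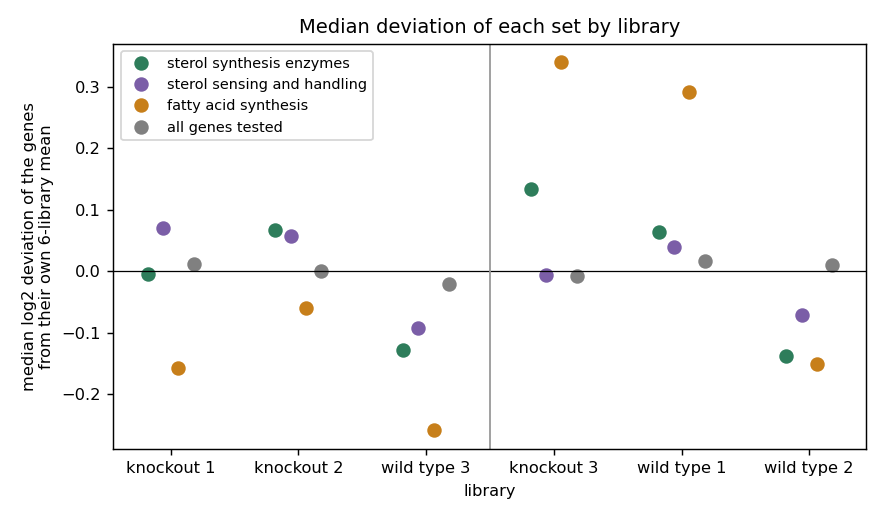
Median log2 deviation of the genes of each set from their own 6-library means, by library, beside all genes tested; the line parts the negative side (left) from the positive side. The fatty acid set lies at 0.34 in knockout 3 and 0.29 in wild type 1, and the sterol enzymes at -0.14 and -0.13 in wild type 2 and wild type 3.

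Of a list of 29 further genes of the same pathways, 27 were measured, and their differences were mixed in direction. There were 17 with a positive and 10 with a negative log2 difference, a median of 0.01 and 0 that passed, and the groups overlapped for all 27; under quantile normalization 12 were positive. The proteases that cut SREBP, Mbtps1 and Mbtps2, differed by -0.02 ± 0.07 and 0.01 ± 0.08. Acss2, which makes acetyl-CoA from acetate, had 33.9, 35.7 and 34.7 TPM under the knockout label and 27.9, 20.9 and 35.1 TPM under the wild-type label. Wild type 3 alone reached the range of the libraries labelled knockout, and the difference was 0.35 ± 0.18 (-0.09 to 0.78). Slc25a1, the citrate carrier, had 119.7, 116 and 129.6 TPM against 120.0, 103 and 109 TPM, a difference of 0.14 ± 0.09. Aacs, which activates acetoacetate, had 80.5, 75.2 and 82.0 TPM against 75.3, 73.7 and 70.6 TPM, a difference of 0.11 ± 0.07. Acsl3, which activates fatty acids, had 52.3, 55.5 and 66.6 TPM against 57.8, 53.2 and 46.3 TPM, a difference of 0.15 ± 0.13. These 4 had the smallest p of the 27, and in each of them the groups overlapped (limma, adjusted p = 1.0).

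Of the 34 genes, 32 had a positive log2 fold change in the authors' deposited table and 2, Scap and Fasn, a negative one. The header reads WT-VS-CKO, and a positive value was taken as higher with the knockout label. This direction was read from the values: 99.0% of the genes with a mean of at least 1 TPM had the sign of knockout minus wild type. The smallest p of the 34 in the authors' deposited table was 0.177, for Insig1, and 0 of the 34 had an adjusted p under 0.05, where 46 genes, or 0.265%, did.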

How the data were processed

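RNA of 6 cultures, 3 per genotype, was profiled as strand-specific total RNA libraries, per the labels' protocols. The submitters' processing notes name the build mm10 and TopHat2 2.0.12, Picard 1.127, FastQC 0.11.2, edgeR, Subread and featureCounts; no source used here gives their roles, the annotation or the counting options. The authors deposited 1 table of 17382 genes with a TPM value per library (a unit read from the values, which sum to 1000000 in each) and, per the file headers, a p-value with its adjusted form, a likelihood ratio (a score), the mean log2 CPM and the log2 fold change of their own test.

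Reads were recovered from the TPM values: 100% of the 94034 values above 0 came out within 0.01 of a whole read once each gene's values were scaled by the relative depth of the libraries, and 427 genes took their common factor from the authors' mean log2 CPM. The genotypes were compared with limma 3.58.1 under R 4.3.3 (mean-variance trend, two-sided, Benjamini-Hochberg over all genes tested, threshold 0.05) on log2(TPM + 0.1), keeping the 13722 genes that reached 0.1 TPM in 3 or more libraries; all 34 genes passed this filter. On that scale the fold changes of low genes come out too small; ± gives an SE for log2 differences and an SD for levels. The labels call the libraries biological triplicates, and p-values measure the spread between these samples only. With 3 libraries per group the smallest p of an exact permutation test is 0.1, so none was run. The fit and the read recovery were tested on simulated data.

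The genes, lists and tests were chosen with earlier results of these data known. Values per library are given for genes whose groups do not overlap; for the 3 highest in level, the 3 highest and 3 lowest in difference and the 3 widest in range of each set; for Srebf1, Srebf2, Insig1, Scd1 and Scd2; and, of the further pathway genes, for those without overlap and the 4 of smallest p. Other genes in the text help to follow the pathway. Marker lists not described in the report are summarised here by their summed levels, libraries labelled knockout first: B cell 48.7 to 81.5 and 78.2 to 99.0 TPM, erythroid 29.9 to 53.9 and 46.7 to 85.2 TPM, megakaryocyte 85.2 to 119 and 107 to 151 TPM, neutrophil 2635 to 3093 and 2216 to 3237 TPM, stroma 0.570 to 0.636 and 0.614 to 1.36 TPM; their part in the differences was not tested.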

Additional observations from a re-analysis of the deposited data

How the results depend on the processing

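Under 15 alternatives (other pseudocounts, filters and scalings, limma-voom on recovered reads, the replicate block, the side of the first principal component as a term, and each library left out) 0 genes passed over all 13722 or over the genes each filter left, and the smallest adjusted p of any of the 34 genes was 0.549. The number of genes at an unadjusted p under 0.05 was 299, and it was 487 with no filter, 168 with a filter of 1 TPM, 1042 with the side as a term and 1017 without wild type 3. Of the 34 genes, 23 kept their direction under every alternative run. Hsd17b7 was -0.00059 under quantile normalization, and Fasn was 0.21 with the side as a term. With single libraries left out the log2 differences of 11 genes reached the other sign: Mvk -0.028 to 0.16, Dhcr7 -0.059 to 0.14, Hsd17b7 -0.22 to 0.16, Tm7sf2 -0.00094 to 0.24, Srebf1 -0.058 to 0.20, Srebf2 -0.033 to 0.12, Scap -0.15 to 0.0022, Fasn -0.22 to 0.19, Acaca -0.10 to 0.10, Elovl6 -0.18 to 0.18 and Fads2 -0.025 to 0.34; the cause was not tested. The set medians then ranged from 0.09 to 0.18 for sterol enzymes, 0.02 to 0.09 for sensing and handling, -0.00015 to 0.18 for fatty acid genes and -0.04 to 0.05 for further pathway genes. Without knockout 3, 26 of the 34 genes were positive, without wild type 2 there were 27 and without wild type 3 there were 26, in place of 32. With the replicate block 0 genes passed, the set medians were 0.12, 0.05, 0.10 and 0.01 in the same order, and Insig1 no longer had an unadjusted p under 0.05. Deviations of same-numbered libraries from their group means correlated at -0.24, -0.15 and -0.53 across genes. The deviations within a group of 3 are bound to each other, so these values cannot decide whether the replicate numbers pair the samples. No scaling moved the median of all genes by more than 0.1 on the log2 scale. Depth was lowest for Idi1, with 308 to 538 reads per library, and the number of libraries, 3 per group, limits the precision of every difference.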

Other observations

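Several of the further pathway genes, named here after their values were seen, varied with the sides of the first principal component. Of the 27 measured, 13 were higher in each library of the positive side than in any of the negative side and 4 were lower, where all genes gave 24.6% and 22.7%. Tmem97, an endoplasmic reticulum protein that binds sterols, had 62.3, 71.3 and 84.1 TPM under the knockout label and 86.9, 83.0 and 58.3 TPM under the wild-type label. Erlin1, a part of the complex that directs sterol regulators to breakdown, had 64.7, 71.0 and 80.3 TPM against 82.2, 81.2 and 61.9 TPM. Lpin1, a phosphatidate phosphatase, ran the other way and most strongly, with 22.1, 20.6 and 10.8 TPM against 13.1, 11.8 and 24.8 TPM, so that the positive side averaged 0.528 times the negative side. Npc2, a lysosomal carrier of cholesterol, had 771, 763 and 679.5 TPM against 639.6, 639 and 774 TPM, in the direction of Lpin1. Of the 5 macrophage markers measured, Csf1r, the receptor of the M-CSF in the medium, had 1448, 1355 and 815 TPM under the knockout label and 1047, 1042 and 1525 TPM under the wild-type label. Csf1r and Mertk were lower in each library of the positive side, whereas Cd68, Itgam and Fcgr1 overlapped between the sides, and Fcgr1 was highest in knockout 3 at 197 TPM. The part of macrophage content in the values above was not tested.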
